A study of Mus musculus with 8 samples.

Results

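The genes of oxidative phosphorylation were followed in mouse mammary tumor organoids with and without SOX4, a transcription factor of the SOX family. They were taken by symbol, as every Nduf subunit gene of complex I, the 4 Sdh genes of complex II, the Uqcr genes of complex III, the Cox4 to Cox8 genes of complex IV, the Atp5 genes of complex V and the protein-coding genes of mitochondrial DNA, with symbols marked as pseudogenes left out. The bulk count files held 101 of them among 38293 genes, 88 encoded in the nucleus and 13 in mitochondrial DNA. The single-cell files held 93 among 15150 genes, 80 nuclear and 13 mitochondrial. In the bulk files, complex I had 40 nuclear and 7 mitochondrial genes, complex II 4 nuclear genes, complex III 8 and 1, complex IV 19 and 3, and complex V 17 and 2. The nuclear symbols Cox6c2, Ndufa11b, Ndufb4c and Ndufs6b matched as well, although the annotation calls them processed pseudogenes.

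The organoids came from MMTV-PyMT; MMTV-Cre; Ecadherin-mCFP tumors, in which the MMTV promoter drives the PyMT oncogene and Cre in mammary epithelium, and all groups carried these alleles. SOX4KO lines were made with CRISPR/Cas9, and every line, control or SOX4KO, was harvested 4 days after being split to single cells in medium with B27 and FGF2. Bulk RNA was sequenced from the control lines WT1 and WT3 and the SOX4KO lines H7, M4 and H4, with 1 library each. Single cells in plate wells were sequenced from the control library GR17 and the SOX4KO libraries GR18 and GR19. Each library stands for 1 line grown in culture, so spread between lines holds both clone and culture differences, and the question was how subunit RNA compared with and without SOX4.

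Complexes I to IV pass electrons from NADH and succinate to oxygen and, except for complex II, pump protons across the inner mitochondrial membrane, and complex V, the ATP synthase, uses that gradient to make ATP. Most subunits are encoded in the nucleus and imported, while the core membrane subunits of complexes I, III, IV and V are encoded by mitochondrial DNA, transcribed there as long precursors and translated by mitochondrial ribosomes. Complex II, which is also the succinate dehydrogenase of the citric acid cycle, has no mitochondrially encoded subunit. Some complex IV subunits exist as tissue isoforms, with forms typical of heart and skeletal muscle beside common ones.

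Reads counted on genes came to between 3050323 and 4678497 per bulk library, and 7535619 to 10001448 further alignments per library were set aside as not unique. The single-cell libraries kept 362 to 369 of 384 wells each at 1000 or more unique molecular identifiers (UMIs, which count molecules rather than PCR copies), with a median of 19845 to 21877 UMIs per cell. The targeted gene, Sox4, stood at 313 and 401 CPM (which puts every library on the same total) in WT1 and WT3 and at 193, 163 and 293 in H7, M4 and H4, and at 118, 82.5 and 110 CPM in GR17, GR18 and GR19. RNA of an edited gene can persist, so these levels do not check the loss of protein. Epithelial markers were present in all lines. Summed CPM of 5 luminal markers was 2368 and 2553 in the controls and 1696 to 2125 in the SOX4KO lines. For 3 of the 5, every SOX4KO line lay below both controls, where 17.9% of all genes tested did. Of 16 markers of endothelium, leukocytes, adipocytes and muscle 15 stayed under 5 CPM in every line. The exception was Cd68, at 14.1 CPM in H7 and at most 3.59 elsewhere. Summed markers of fibroblasts were 303 and 199 CPM in the controls and 119 to 137 in the SOX4KO lines, and those of basal cells 571 and 367 against 472 to 1285. Of 85 tested genes of S phase and G2/M, 21 were lower in SOX4KO by the bulk test described below, against 2.17% of all genes. Their median log2 fold change was -0.72 over the 85. The part of these differences in the values that follow was not tested.

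The clearest feature of the mitochondrially encoded genes in the bulk files was that 6 of the 13 had next to no reads. mt-Co2, mt-Atp6, mt-Atp8, mt-Nd3 and mt-Nd4l were at 0 in all 5 libraries, and mt-Co3 had 1 read, in H4. In the single-cell libraries the same 6 genes were among the abundant RNAs. mt-Atp6, a proton channel subunit of ATP synthase, stood at 13452, 15318 and 17284 CPM in GR17, GR18 and GR19, and mt-Co2, a copper-binding core subunit of cytochrome c oxidase, at 10696, 11860 and 13040 CPM. The RNAs were therefore present in organoids of this model and absent from the bulk counts.

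The reference annotation (GRCm38) places on the minus strand of chromosome 1, at chr1:24611535-24616197, a run of 7 unprocessed pseudogenes that copy a stretch of mitochondrial DNA. The bulk files use the older build mm9, and positions in it were not used. Each member was cut into windows of 50 bases, and the share of windows found in transcripts of any other gene was 100% for mt-Co2, 99.9% for mt-Co3, 99.5% for mt-Atp6, 98.8% for mt-Nd4l and 97.99% for mt-Nd3. It was 62.2% for mt-Nd4 and 51.1% for mt-Co1, which lie across the ends of the copied stretch, and 8.19% for mt-Nd2, 7.61% for mt-Nd5 and 0 for mt-Nd1, mt-Cytb and mt-Nd6. Apart from mt-Atp8, the genes at or near 0 were those with at least 97.99% of windows shared, and all 7 genes with 62.2% or less had reads. mt-Atp8 matched no annotated transcript, and 233 bases without annotation separate the copies of its neighbours mt-Atp6 and mt-Co2. Whether the missing reads were among the alignments set aside as not unique was not tested.

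The first 120 bases of 2 of these genes are shown with their chromosome 1 copies because they show how little separates them. mt-Atp6 lies at chrM:7927-8046 on the plus strand and its copy, Gm10925, at chr1:24614532-24614651 on the minus strand, and all 678 aligned bases are identical. mt-Nd3 lies at chrM:9459-9578 on the plus strand and its copy, Gm28438, at chr1:24613000-24613119 on the minus strand, with 1 difference in 345 aligned bases, T3C, counted from the first coding base of mt-Nd3. Capitals mark that base.
mt-Atp6: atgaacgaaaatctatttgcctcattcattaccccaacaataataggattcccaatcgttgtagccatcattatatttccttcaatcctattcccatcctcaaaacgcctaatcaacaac
Gm10925: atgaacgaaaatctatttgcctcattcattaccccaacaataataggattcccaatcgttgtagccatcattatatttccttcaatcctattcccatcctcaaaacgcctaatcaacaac
mt-Nd3: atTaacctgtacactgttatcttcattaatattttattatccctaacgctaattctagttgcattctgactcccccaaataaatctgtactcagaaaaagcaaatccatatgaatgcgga
Gm28438: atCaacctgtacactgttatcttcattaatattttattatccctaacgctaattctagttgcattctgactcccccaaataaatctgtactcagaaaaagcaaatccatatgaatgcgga

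**Figure D1:**
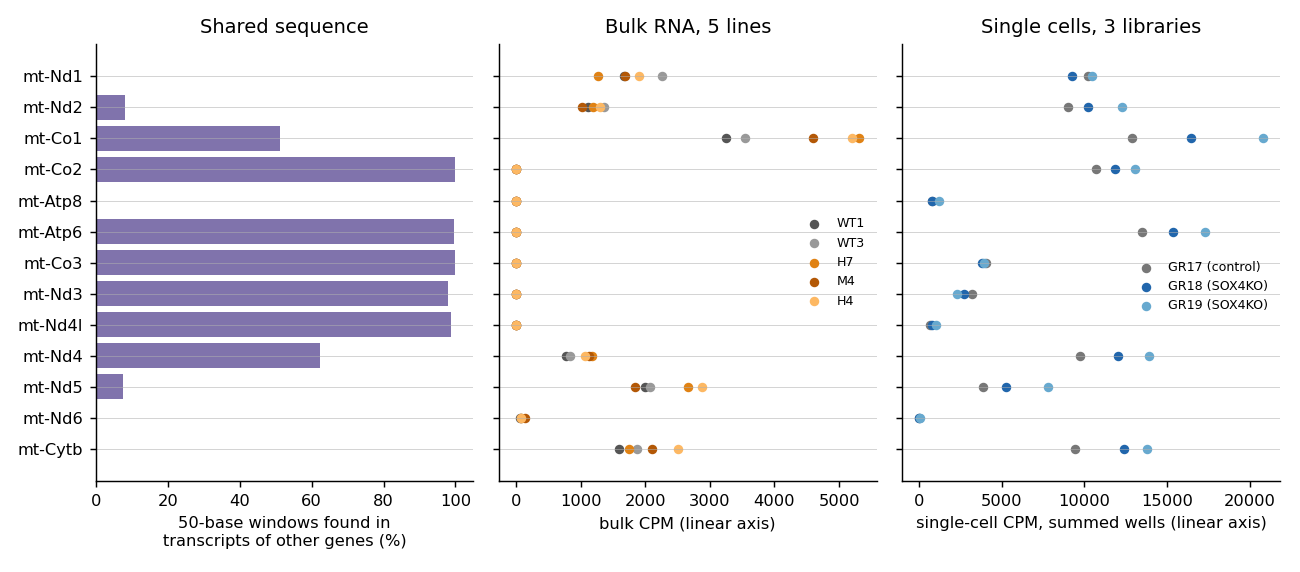
The 13 mitochondrially encoded genes in the order of mitochondrial DNA, with the percent of 50-base windows found in transcripts of other genes (bars), the bulk CPM of each of 5 lines and the single-cell CPM of each of 3 libraries (points, linear axes). The 5 genes from mt-Co2 to mt-Nd4l with full-length bars, and mt-Atp8 between them, sit at 0 in bulk, while mt-Co2 and mt-Atp6 stand at 10696 CPM or more in single cells.

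Among the nuclear genes, the same picture held for Atp5l, a small membrane subunit of ATP synthase. It had 10 bulk reads in all, shared 77.5% of its windows with 14 other genes, and stood at 372, 331 and 296 CPM in GR17, GR18 and GR19. Ndufs5, a complex I subunit, had no bulk read and at most 1 UMI in any single-cell library, with 21.7% of its windows shared. The other nuclear genes that could not be tested in bulk were those with few or no reads. Levels of these 2 genes and of the 6 mitochondrial ones cannot be read from the bulk counts.

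In bulk, SOX4KO was compared with control by edgeR's quasi-likelihood test over 11682 genes with an adjusted p under 0.1. No oxidative phosphorylation gene passed it in either direction, against 2.17% of all genes called lower and 4.1% called higher. Of all calls 65.3% were higher, and with library totals alone 41.5%, with 0 members called under either scaling. Of the 7 mitochondrial genes tested, 5 had a positive and 2 a negative log2 fold change, with a median of 0.29, against 0.01 over all genes. At an unadjusted p under 0.05, 2 of the 7 were higher and 0 lower, where 10.4% of all genes were higher and 7.68% lower. DESeq2 called the same 2 genes higher, mt-Co1 and mt-Nd4, where it called 5.79% of all genes higher and 2.76% lower. In M4, reads on 2 mitochondrial ribosomal RNAs were 6.52% of all counted reads, against 2.86% to 4.15% in the other lines.

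mt-Co1, the catalytic subunit of cytochrome c oxidase, stood at 3253 and 3545 CPM in WT1 and WT3 and at 5317, 4590 and 5196 in H7, M4 and H4 (CPM scaled by TMM factors, as for all bulk genes below). All 3 SOX4KO lines lay above both controls, and the means were 3399 ± 207 (SD, n = 2) and 5034 ± 389 (SD, n = 3). The log2 fold change was 0.57 ± 0.22 (SE), with an edgeR adjusted p of 0.218 and a DESeq2 adjusted p of 0.0175. mt-Nd4, a proton-pumping subunit of complex I, stood at 779 and 837 CPM in the controls and at 1169, 1123 and 1075 in H7, M4 and H4. These groups did not overlap either, with a log2 fold change of 0.47 ± 0.18 (SE), an edgeR adjusted p of 0.224 and a DESeq2 adjusted p of 0.0498. Groups lay apart upwards in 19% and downwards in 17.9% of all genes tested. Part of mt-Co1 and of mt-Nd4 is shared with the chromosome 1 copies, and where in these genes the counted reads lie was not tested.

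For the other 5 mitochondrial genes the groups overlapped. mt-Nd1, a membrane subunit of complex I, stood at 1676 and 2259 CPM in the controls and at 1265, 1691 and 1909 in H7, M4 and H4, with a log2 fold change of -0.28 ± 0.25 (SE, edgeR adjusted p = 0.63). mt-Nd2, its neighbour on the DNA, was at 1112 and 1359 CPM against 1190, 1021 and 1297 (log2 fold change -0.08). mt-Nd5, at 1995 and 2076 CPM in the controls, was at 2666 in H7 and 2875 in H4 but at 1849 in M4, below both controls. mt-Cytb, the cytochrome b of complex III, was at 1594 and 1877 CPM against 1754, 2098 and 2505 (log2 fold change 0.29). mt-Nd6, which is encoded on the opposite strand from the other 12, was at 63.8 and 79.1 CPM against 74.4, 139 and 80.5. The mitochondrial genes thus took different positions line by line and did not move as a block. Their reads together were 1.11% and 1.29% of all counted reads in the controls and 1.31%, 1.14% and 1.47% in H7, M4 and H4, ranges that overlap.

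The nuclear genes showed less difference between groups than among the SOX4KO lines. Of 75 tested, 51 had a positive and 24 a negative log2 fold change, with a median of 0.09 and a range from -0.52 for Cox7c to 0.93 for Cox6c2. None passed the edgeR or the DESeq2 test, none had an unadjusted p under 0.05, and the lowest edgeR adjusted p was 0.295. The groups lay apart upwards for 9 of the 75 and downwards for 1, where they did for 19% and 17.9% of all genes tested. Relative to the control mean, the median over the 75 genes was -0.14 in H7, 0.44 in M4 and -0.02 in H4 on a log2 scale with 0.5 CPM added, and -0.10 and 0.10 in WT1 and WT3. M4 was the highest of the 5 lines for 62 of the 75 genes (82.7%, against 25.7% of all genes tested), and H7 the lowest for 38 (50.7% against 22.5%). The M4 library also had the fewest reads counted on genes (3050323) and the most alignments that were not unique (10001448). The part of this in its values was not tested. Without M4 the median log2 fold change was -0.10, and without WT1 it was -0.004, so its sign rested on single lines. With library totals alone as the scaling it was -0.08, where the median of all genes was -0.15. Nuclear members took 0.786% and 0.909% of counted reads in the controls and 0.686%, 0.932% and 0.752% in H7, M4 and H4.

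**Figure D2:**
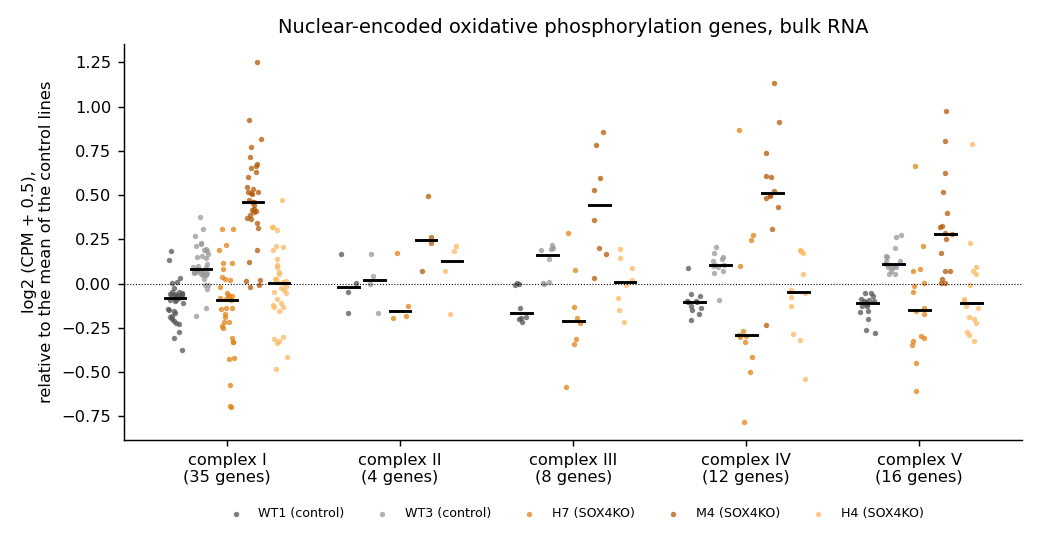
Each point is 1 of 75 nuclear genes in 1 bulk line, as log2 (CPM + 0.5) relative to the mean of both control lines, grouped by complex, with a black bar at the median of the complex. M4 lies above the other 4 lines in every complex, with medians from 0.25 in complex II to 0.51 in complex IV, while H7 lies below 0 in every complex.

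Gene length moved with the same line. Among genes that are not members, those with 0.5 to 1 kb of exons had a median of 0.42 in M4 and those over 4 kb a median of -0.11. Nuclear members of the same classes had medians of 0.51 and 0.17. In H7 and H4 the medians of other genes stayed between -0.12 and 0.06 in the 4 classes from 0.5 kb up. The members were above the other genes of their own class in M4 in each of these classes, and most members are short, since 46 of the 73 at 10 CPM or more had under 2 kb of exons. The part of length in the M4 values was not tested further.

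In complex I, Ndufb4, an accessory subunit, had the highest log2 fold change of 35 tested genes and Ndufa3, another small accessory subunit, the lowest. Ndufb4 stood at 8.005 and 10.9 CPM in the controls and at 9.63, 23 and 10 in H7, M4 and H4, so that M4 alone stood apart (0.55 ± 0.43, log2 fold change ± SE). Ndufa3 was at 41.1 and 39.3 CPM against 24.7, 40.6 and 28.7 (-0.37 ± 0.24), with M4 among the controls. In complex III, Uqcrh, the hinge protein that binds cytochrome c1, was at 137 and 138 CPM in the controls and at 168, 250 and 146 in the SOX4KO lines (0.45 ± 0.24), all above the controls. Uqcrfs1, the Rieske iron-sulfur protein, was at 93 and 126 CPM against 72.1, 111 and 92.9 (-0.26 ± 0.23). The edgeR adjusted p values of these 4 genes lay between 0.392 and 0.625.

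The 4 genes of complex II overlapped between groups except for Sdhc. Sdhc, a membrane anchor that holds the heme, was at 96.1 and 102 CPM in the controls and at 112, 140 and 115 in H7, M4 and H4 (log2 fold change 0.30 ± 0.18, edgeR adjusted p = 0.434). Sdha, the flavoprotein that oxidises succinate, was at 160 and 201 CPM against 157, 188 and 204 (0.02 ± 0.19). Sdhb, the iron-sulfur subunit, was at 89.3 and 70.7 CPM against 69.5, 93.3 and 70.5 (-0.04 ± 0.20). Sdhd, the other anchor, was at 114 and 113 CPM against 104, 136 and 119 (0.08 ± 0.18).

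Complex IV held both ends of the nuclear range. Cox7c, a small structural subunit, was the only nuclear member whose 3 SOX4KO values all lay below both controls, at 23.5 and 25.6 CPM in the controls and 14.1, 20.8 and 16.7 in H7, M4 and H4 (-0.52 ± 0.24, 95% interval -1.07 to 0.02, edgeR adjusted p = 0.295). Cox6c2, annotated as a processed pseudogene of Cox6c, reached its log2 fold change of 0.93 on 4 and 7 reads in the controls and 10, 9 and 6 in the SOX4KO lines, and it shares 52.7% of its windows with other genes.

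The isoforms of complex IV in these organoids were the common ones. Cox4i1 was at 278 and 353 CPM in the controls and 249, 442 and 251 in H7, M4 and H4, while Cox4i2, the form linked to lung and low oxygen, had 2 and 1 reads in the controls and 0 elsewhere. Cox6a1, Cox6b1, Cox7a2, Cox7a2l, Cox7b and Cox8a had means between 52.1 CPM (Cox7a2) and 172 CPM (Cox8a) in the controls and between 61.7 and 192 CPM in the SOX4KO lines, and the groups overlapped for all 6. The muscle or testis forms Cox6a2, Cox6b2, Cox7b2, Cox8b and Cox8c had no bulk read. Cox7a1, the muscle partner of Cox7a2, had 6 and 24 reads in the controls and 1, 7 and 0 in H7, M4 and H4, too few to be tested after filtering. With no filter beyond 1 count it was the 1 member that edgeR called lower, where 3.78% of all genes were. Ndufa4, which can be found with complex IV, was at 106 and 131 CPM against 88, 129 and 108, and its low-oxygen paralog Ndufa4l2 had 1 read in each of H7 and M4 and 0 in the other lines.

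In complex V, Atp5s, a coupling factor of low abundance, had the highest log2 fold change (6.2 and 9.14 CPM in the controls, 12.2, 7.54 and 13.4 in H7, M4 and H4, 0.53 ± 0.36) and Atp5g1 the lowest (55.5 and 73.3 CPM against 41.6, 67.1 and 55.4, -0.24 ± 0.24). Atp5g1, Atp5g2 and Atp5g3 all encode the c subunit of the rotor ring. Per kilobase of all annotated exons, their control means were 13.1, 18.6 and 66.7 CPM and their SOX4KO means 11.1, 16.5 and 66.9 CPM. The level of Atp5g3 was thus the highest in both groups. In total bulk reads, not divided by length, Atp5g3 was also highest (2852), but Atp5g1 (1163) lay above Atp5g2 (576). The median log2 fold change was -0.00 over the 16 tested genes of complex V and 0.13, 0.05, 0.10 and 0.12 over the nuclear genes of complexes I, II, III and IV.

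Other mitochondrial genes gave no call in bulk either. None of 42 tested assembly factors (median log2 fold change 0.03), 18 genes of mitochondrial DNA upkeep and expression (-0.15), 7 regulators of respiratory genes (-0.08), 16 genes of the citric acid cycle (-0.10) and 15 carriers and neighbouring enzymes (0.19) passed the test. Of 75 mitochondrial ribosomal protein genes, 0 passed, 54 had a negative log2 fold change (72%, against 49.1% of all genes) and the median was -0.11. Tfam, which packages mitochondrial DNA, was at 34.6 and 36.6 CPM in the controls and 43.2, 51.7 and 39.7 in the SOX4KO lines, and Yy1 and Nrf1, which bind promoters of respiratory genes, had log2 fold changes of 0.20 and -0.20 (these 3 were chosen after their values were seen). DESeq2 called 0 genes of these lists too. At an unadjusted edgeR p under 0.05, 1 of 42 assembly factors and 1 of 16 citric acid cycle genes were higher. Lower were 2 of 18 genes of mitochondrial DNA upkeep and expression and 3 of 75 mitochondrial ribosomal protein genes. Of all genes tested, 10.4% were higher and 7.68% lower at that level.

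In the single-cell libraries nuclear and mitochondrial members lay on opposite sides of the control. Nuclear members took 2.005% of UMIs in GR17, 1.86% in GR18 and 1.68% in GR19, while mitochondrially encoded members took 8.81%, 10.1% and 11.8%. With 1 control library there is no test of the condition, and exact Poisson intervals on these levels cover counting error only. The mitochondrial ribosomal RNAs were 2.61%, 2.37% and 3.31% of UMIs and the ribosomal RNA precursor Rn45s 5.01%, 3.38% and 6.01% in GR17, GR18 and GR19, so that GR19 stood highest and GR18 lowest for both. With all mitochondrially encoded genes and Rn45s out of the total, nuclear members were still 2.399%, 2.21% and 2.13%.

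Across genes with an average of at least 20 CPM, 57 of 74 nuclear members (77.03%) were lower than GR17 in both SOX4KO libraries, where 42.5% of all 6303 genes were. In turn, 9 of 13 mitochondrial members were higher in both (69.2%), against 38.8% of all genes. The nuclear medians were -0.11 in GR18 and -0.30 in GR19, on the log2 (CPM + 1) scale that holds for all single-cell ratios here, and the mitochondrial medians 0.17 and 0.51. Over all genes the medians were 0.01 and -0.05. All 11 complex IV nuclear genes compared were lower in both, 7 of 8 in complex III, 26 of 35 in complex I, 12 of 16 in complex V and 1 of 4 in complex II. Mitochondrial ribosomal protein genes were lower in both for 56 of 74, with medians of -0.19 and -0.25. Assembly factors were lower in both for 8 of 23 (medians 0.03 and -0.07), citric acid cycle genes for 6 of 16 (0.05 and -0.01), genes of mitochondrial DNA upkeep and expression for 3 of 8 (-0.05 and 0.03) and carriers and neighbouring enzymes for 5 of 14 (0.12 and 0.01), of which 7 were higher in both.

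The differences of single nuclear genes were small. With a cut-off of at least 25% higher or 20% lower than GR17 in both libraries, 5 nuclear members were lower (6.76%, against 12.6% of all genes) and 2 higher (2.70% against 14%), and 3 mitochondrial members were higher and 0 lower. In GR19 alone, 33 of the 74 nuclear members were past the cut-off downwards, a larger share than the 22.5% of all genes. Upwards there were 2, against 19.1%. In GR18 alone, 5 (6.76%) were past the cut-off downwards, against 16.8% of all genes, and 3 upwards, against 20.5%. The shares past the cut-off in both libraries were below the background in each direction for nuclear members. The downward share was above the background in GR19 alone and below it in GR18 alone.

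**Figure D3:**
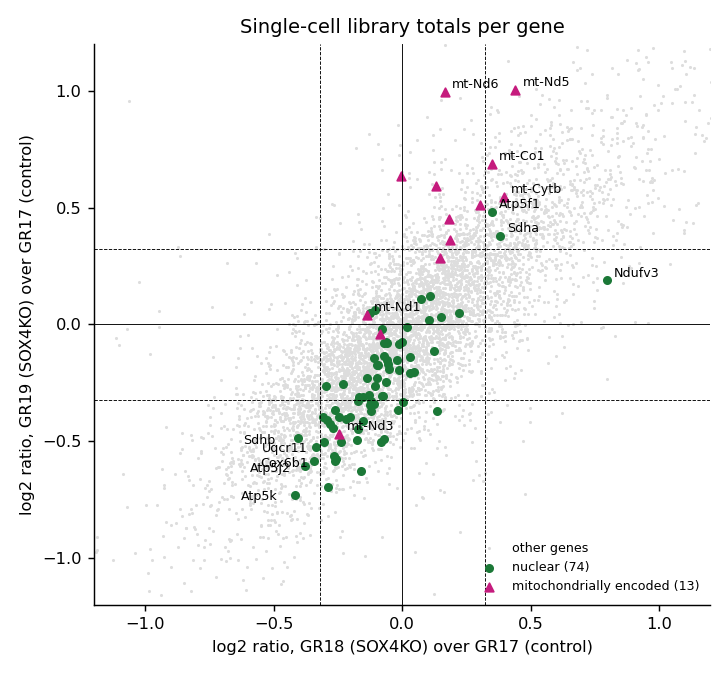
Each point is a gene with at least 20 CPM on average, placed by its log2 ratio to GR17 in GR18 (x axis) and GR19 (y axis), with nuclear members as circles, mitochondrial members as triangles, other genes in grey and dashed lines at the cut-off of 25% higher or 20% lower. Axes end at 1.2, which leaves 195 of 6216 other genes outside, and most circles lie in the lower left near the centre while 9 of 13 triangles lie in the upper right.

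The 3 mitochondrial genes past the cut-off were mt-Co1, mt-Nd5 and mt-Cytb. mt-Co1 stood at 12886 CPM in GR17, 16423 in GR18 and 20762 in GR19, or 1.275-fold and 1.61-fold. mt-Nd5 stood at 3892, 5283 and 7802 CPM, the widest ratio in GR19 among members at 20 CPM or more on average, at 2.005-fold, and mt-Cytb at 9436, 12413 and 13767 CPM. Not all moved this way. mt-Nd3 was at 3224, 2720 and 2329 CPM, lower in both SOX4KO libraries, and its exact Poisson intervals (95%) of 3184 to 3264, 2684 to 2757 and 2296 to 2362 CPM did not overlap. mt-Co3 was at 4069, 3836 and 3957 CPM and mt-Nd1 at 10188, 9258 and 10477.

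mt-Nd4 was at 9758, 12026 and 13893 CPM, mt-Nd2 at 8985, 10195 and 12268, mt-Nd4l at 702, 769 and 1059 and mt-Atp8 at 770, 767 and 1197. mt-Nd6 was the rarest, at 19.7, 22.2 and 40.3 CPM from 152, 178 and 334 UMIs. The share of mt-Co1 among the UMIs of all 13 genes was 14.6% in GR17, 16.3% in GR18 and 17.6% in GR19, while mt-Nd1 went from 11.6% to 9.18% and 8.89%. In bulk, over the 7 genes that were counted, mt-Co1 held 31.1% and 29.5% in WT1 and WT3 and 39.6%, 36.7% and 34.8% in H7, M4 and H4, and mt-Nd1 16.003% and 18.8% against 9.42%, 13.5% and 12.8%. For both genes every SOX4KO line lay on the same side of both controls in these shares, a split noticed after the values were seen. The bulk share of mt-Nd2 split as well, at 10.6% and 11.3% in WT1 and WT3. In H7, M4 and H4 it was 8.86%, 8.16% and 8.68%. The bulk shares of mt-Nd4, mt-Nd5, mt-Nd6 and mt-Cytb overlapped between groups. By CPM, groups lay apart upwards in 19% and downwards in 17.9% of all genes tested. Among all 13 genes in single cells, mt-Nd2 held 10.2%, 10.1% and 10.4% in GR17, GR18 and GR19. Over the same 7 genes as in bulk, mt-Nd2 held 16.3%, 15.5% and 15.5%, lower in both SOX4KO libraries. Shares of the same total also depend on each other.

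The 5 nuclear genes past the cut-off downwards in both libraries were small subunits and Sdhb. Atp5k, a membrane subunit of ATP synthase, was at 210 CPM in GR17, 157 in GR18 and 126 in GR19, or 0.75 and 0.60 of the control. Atp5j2, another membrane subunit, was at 155, 118 and 101 CPM, and Cox6b1, which lies where complex IV forms dimers, at 452, 356 and 300.5 CPM. Uqcr11, a small complex III subunit, was at 109, 86.3 and 75.6 CPM. Sdhb was at 128, 96.5 and 91.2 CPM, with exact Poisson intervals of 120 to 137 in GR17, 89.8 to 104 in GR18 and 84.9 to 97.98 in GR19. In bulk, the log2 fold changes of the 5 genes lay between -0.04 and 0.08, with groups that overlapped for each.

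The 2 nuclear genes past it upwards were Sdha and Atp5f1. Sdha was at 136, 177 and 177 CPM in GR17, GR18 and GR19, 1.30-fold in both libraries, and Atp5f1, the b subunit of the ATP synthase stalk, at 137, 175 and 192 CPM. Sdhc, at 119, 128 and 121 CPM, and Sdhd, at 49, 54.6 and 50.1 CPM, were at most 1.11-fold above the control. Within complex II, then, Sdha and Sdhb stood on opposite sides of the control. Ndufv3, a small accessory subunit of complex I, was at 69.2, 121 and 79.1 CPM, 1.74-fold in GR18 and 1.14-fold in GR19, so that a single library carried its difference (a gene chosen after its values were seen).

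Single-cell levels moved with gene length too. Other genes with under 1 kb of exons had medians of -0.12 in GR18 and -0.31 in GR19, and those of 4 kb and over 0.02 in both. Nuclear members under 1 kb had medians of -0.17 and -0.40 (16 genes), and those of 4 kb and over -0.11 and -0.28 (10 genes). In each of the 4 length classes the median of members lay below that of other genes in both libraries. In bulk M4 the shift with length ran the other way.

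**Figure D4:**
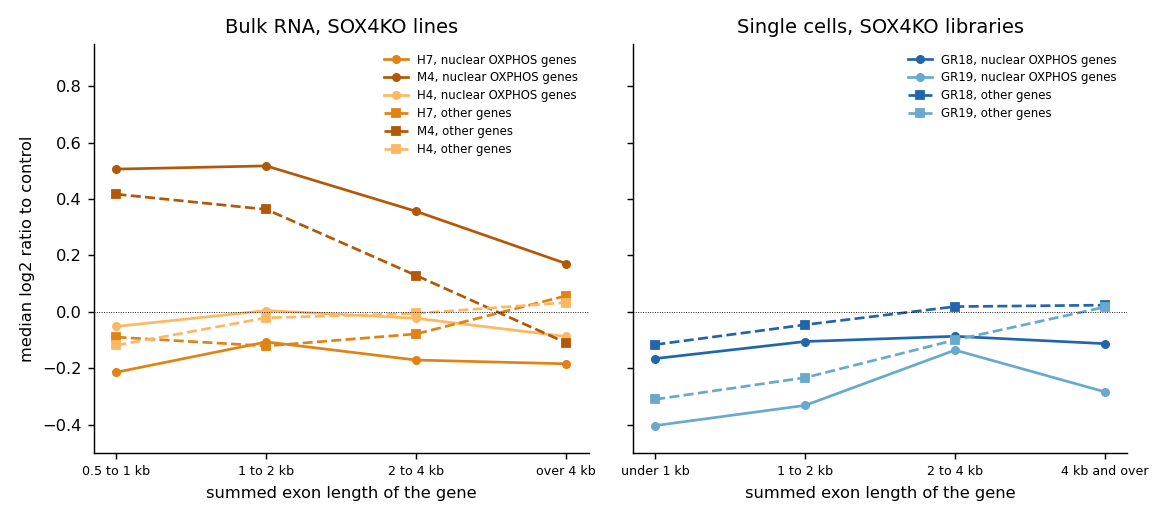
Median log2 ratio to control by summed exon length, for nuclear members (solid lines, circles) and other genes (dashed lines, squares), in the SOX4KO bulk lines (left) and the SOX4KO single-cell libraries (right). M4 lies highest for short genes of both kinds, and GR19 lowest, with a median of -0.40 for members under 1 kb.

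Promoters of the nuclear members were read for motifs because most of these genes lay on the same side of the control in single cells. RefSeq promoters of GRCm38.p6, 250 bases before to 50 after each start, matched 69 of the 89 nuclear symbols. On both strands, GCGCATGC, the core bound by NRF1, was found in 10 of the 69 (14.5%, against 3.05% of promoters of all 27025 genes), CCGGAAG, bound by ETS factors such as GABPA, in 16 (23.2% against 9.93%), and AAGATGGC, bound by YY1, in 11 (15.9% against 3.19%). AACAAAG, which SOX proteins bind, was found in 4 (5.80% against 6.68%). At least 1 of the NRF1, ETS and YY1 motifs was in 31 of the 69 (44.9% against 14.9%). These are matches of letters and not measured sites. The 27025 genes were not limited to genes expressed in these organoids, so members were not compared with other expressed genes.

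Promoters of Sdha and Sdhb are shown as the pair within complex II on opposite sides of the control, and those of Atp5k and Uqcr11 because these were lower in both libraries and carry an NRF1 and an ETS match. Each is 300 bases, written along the gene's strand, with motif letters in capitals. They lie at chr13:74350191-74350490 (Sdha, minus strand), chr4:140961021-140961320 (Sdhb, plus), chr5:108434350-108434649 (Atp5k, minus) and chr10:80406772-80407071 (Uqcr11, minus) in GRCm38.p6. Sdha held none of the 4 motifs in this window.
Sdha: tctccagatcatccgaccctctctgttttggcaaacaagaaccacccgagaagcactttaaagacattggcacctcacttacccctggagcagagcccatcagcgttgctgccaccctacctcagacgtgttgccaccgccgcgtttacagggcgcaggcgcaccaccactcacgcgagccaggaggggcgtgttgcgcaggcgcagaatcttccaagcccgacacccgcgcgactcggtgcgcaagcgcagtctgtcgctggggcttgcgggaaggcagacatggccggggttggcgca
Sdhb: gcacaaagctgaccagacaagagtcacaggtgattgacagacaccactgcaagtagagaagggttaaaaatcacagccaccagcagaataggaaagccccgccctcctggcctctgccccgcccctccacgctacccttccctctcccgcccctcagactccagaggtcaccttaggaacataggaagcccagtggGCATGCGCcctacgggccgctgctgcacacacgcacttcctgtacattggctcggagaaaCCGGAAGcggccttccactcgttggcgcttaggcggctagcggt
Atp5k: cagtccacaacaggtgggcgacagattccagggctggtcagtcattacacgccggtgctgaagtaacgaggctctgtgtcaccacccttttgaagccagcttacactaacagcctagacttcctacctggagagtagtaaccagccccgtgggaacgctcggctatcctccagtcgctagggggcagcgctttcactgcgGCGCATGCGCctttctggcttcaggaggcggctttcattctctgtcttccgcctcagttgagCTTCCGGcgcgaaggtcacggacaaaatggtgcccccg
Uqcr11: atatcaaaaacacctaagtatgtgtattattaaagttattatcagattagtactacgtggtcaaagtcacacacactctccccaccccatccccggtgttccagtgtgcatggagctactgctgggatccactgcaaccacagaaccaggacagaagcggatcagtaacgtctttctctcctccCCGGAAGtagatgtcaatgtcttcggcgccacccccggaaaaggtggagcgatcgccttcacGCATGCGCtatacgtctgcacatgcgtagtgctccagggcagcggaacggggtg

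Each of the 5 genes past the cut-off downwards held an NRF1, ETS or YY1 match (Cox6b1 an ETS and Atp5j2 a YY1 match), where 44.9% of the 69 members did. Of the 2 higher genes Atp5f1 held a YY1 match. These genes were chosen by their levels, and whether the motifs bear on the levels was not tested. Levels of the regulators of respiratory genes gave no call in bulk, as above. In single cells 4 of the 5 regulators compared were lower than GR17 in both SOX4KO libraries, where 42.5% of all genes were. Past the cut-off were 2 of them, against 12.6% of all genes, and the medians were -0.18 and -0.35. The part of the regulators in the levels of members was not tested.

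Cell by cell, the median and both quartiles moved in the same order across the libraries. The median share of a cell's UMIs on nuclear members was 2.01% in GR17 (quartiles 1.85 to 2.17, 369 cells), 1.86% in GR18 (1.69 to 2.06, 369 cells) and 1.68% in GR19 (1.53 to 1.86, 362 cells). On mitochondrial members it was 8.69% (7.38 to 10.01), 9.97% (8.44 to 11.5) and 11.8% (10.2 to 13.7). The quartile ranges of GR17 and GR19 did not overlap for the mitochondrial share and barely did for the nuclear share. Those of GR17 and GR18 overlapped for both shares. The mitochondrial 10th percentile was 6.41% in GR17 and 6.79% in GR18, and the 90th 11.4% and 13.1%. Mitochondrial UMIs per nuclear UMI had a median of 4.26 in GR17, 5.28 in GR18 and 6.96 in GR19. Each cell thinned to 5000 UMIs gave medians of 8.62%, 9.9% and 11.76% for mitochondrial members, over 361, 365 and 358 cells.

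**Figure D5:**
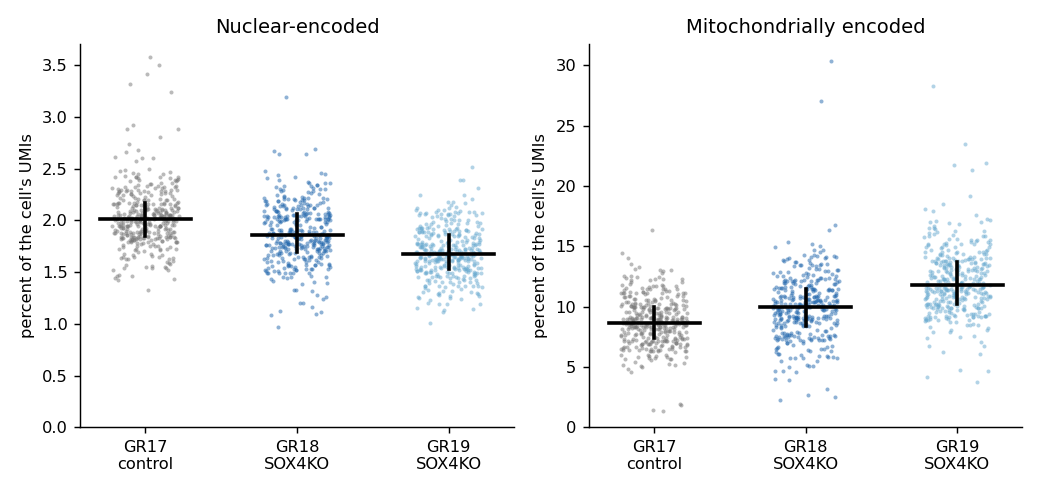
Each point is 1 cell with at least 1000 UMIs, as the percent of its UMIs on nuclear members (left) and mitochondrially encoded members (right), with a horizontal bar at the median and a vertical bar from the lower to the upper quartile. From GR17 to GR19 the nuclear medians are 2.01%, 1.86% and 1.68% and the mitochondrial medians 8.69%, 9.97% and 11.8%.

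Within a library, cells were cut into 3 equal groups by the share of their UMIs on genes of S phase and G2/M, on luminal markers and on basal markers, which gives ranges of a score and not cell types. The nuclear share, here of UMIs without mitochondrially encoded genes and Rn45s, hardly differed between the groups by cell cycle, with medians of 2.47%, 2.36% and 2.43% in the lower, middle and upper group of GR17, 2.15%, 2.29% and 2.16% in GR18 and 2.13%, 2.19% and 2.13% in GR19. The mitochondrial share was lower in the upper basal group than in the lower one, at 7.68% against 9.74% in GR17 and 8.30% against 11.2% in GR18, and at 11.5% against 12.3% in GR19. By luminal markers the mitochondrial share was higher in the upper group than in the lower one. It was 9.12% against 8.42% in GR17, 10.98% against 8.99% in GR18 and 11.96% against 11.26% in GR19. Between libraries the genes of S phase and G2/M took 0.952% of UMIs in GR17, 0.746% in GR18 and 0.757% in GR19, and 69 of 83 were lower in both SOX4KO libraries, 36 of them past the cut-off. The part of this difference in the nuclear values was not tested beyond these groups. Every group of GR19 had a higher mitochondrial median than the same group of GR17. Summed basal markers were 0.366% of UMIs in GR17, 0.321% in GR18 and 0.160% in GR19, so the basal share was lowest in GR19, where the mitochondrial share was highest, while Krt14 alone stood at 1586, 1662 and 1019 CPM. Fewer cells of a kind and less RNA per cell cannot be told apart in library sums.

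Of the 6 members under 20 CPM on average, Atp5s had 45, 50 and 78 UMIs in GR17, GR18 and GR19. The muscle isoform Cox6a2 had no UMI in the 369 cells of GR17, which allows a share of cells with a UMI of up to 0.813% and sets no limit on cells that express it, 25 UMIs in 4 cells of GR18 with 13 in a single cell, and 12 UMIs in 3 cells of GR19 with 10 in a single cell. Cox7a1 had 3, 8 and 5 UMIs in GR17, GR18 and GR19, and Ndufa4l2 and Cox6b2 had 1 UMI each, in GR18.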

How the data were processed

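The authors deposited counts of reads per gene for 5 bulk libraries and counts of UMIs per gene and well for 3 single-cell libraries, both raw. Per the submitters' processing notes, STAR 2.4.2a, HTSeq, Picard, R 3.6.1, Seurat, edgeR and DESeq and the build NCBIM37/mm9 were used. HTSeq rows that name no gene (per library 4175352 to 5748559 reads on no feature, 75416 to 153249 ambiguous ones and 7535619 to 10001448 alignments that were not unique) and spike-in rows were left out of all totals. Of 38293 bulk identifiers 36345 had a symbol in the annotation. Bulk counts were tested with edgeR 4.0.16 (R 4.3.3, filterByExpr, TMM, quasi-likelihood, Benjamini-Hochberg over 11682 genes, adjusted p under 0.1), with DESeq2 1.42.0 as an alternative, on lines as replicates, since the labels name separate lines, and the scripts were tested on simulated data. Wells under 1000 UMIs were left out, doublets were not called, and wells were summed per library.

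Gene names, lengths and transcripts came from GENCODE M21. Members, lists, motifs and the 50-base windows were chosen with earlier results of these data known. Named were members called in bulk, all mitochondrial members, the highest and lowest log2 fold change per complex, the Sdh genes, isoforms, and members past 1.25-fold in both SOX4KO single-cell libraries. P-values measure the spread between lines. Alternatives were another scaling, filter, threshold, minimum depth, pseudocount and denominator, and each line left out in turn.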

Additional observations from a re-analysis of the deposited data

How the results depend on the processing

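In bulk, the counts of members called were the same under the 2 other scalings, without mitochondrially encoded genes, at an adjusted p under 0.05 and without any 1 line (0 in each direction). DESeq2 called 2 mitochondrial members higher (5.79% of all genes), and with no filter beyond 1 count 1 nuclear member was called lower (Cox7a1; 3.78% of all genes). The nuclear median log2 fold change was between -0.10 (without M4) and 0.21 (without H7), -0.004 without WT1 and -0.08 with library totals alone. It moved by less than the SD between lines (0.26) throughout. That SD is itself widened by M4, and the sign turned without M4, without WT1 and with library totals alone. The mitochondrial median was between 0.15 and 0.41 without any 1 line.

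None of the named genes below was called, and directions turned for 16 of 33 named genes. With library totals alone, log2 fold changes were -0.166 for Atp5g3, -0.0945 for Cox6b1, -0.0108 for Cox8a, -0.141 for Sdha and -0.0888 for Sdhd. Atp5g3 was at -9.59e-05 with DESeq2 and -0.0107 with no filter beyond 1 count. Without any 1 line, the ranges were -0.147 to 0.0675 for Atp5f1, -0.16 to 0.135 for Atp5g3, -0.276 to 0.281 for Atp5j2, -0.168 to 0.142 for Atp5k, -0.341 to 0.174 for Cox4i1, -0.0406 to 0.392 for Cox6a1, -0.176 to 0.231 for Cox6b1, -0.0917 to 0.449 for Cox7a2, -0.314 to 0.0931 for Cox7b, -0.0548 to 0.38 for Cox8a, -0.283 to 0.0283 for Ndufa4, -0.134 to 0.198 for Sdha, -0.203 to 0.134 for Sdhb, -0.0301 to 0.166 for Sdhd, -0.227 to 0.206 for Uqcr11 and -0.218 to 0.0724 for mt-Nd2. The cause was not tested.

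In single cells, 0 nuclear members were higher, 0 lower and 0 mitochondrial members higher at 1.5-fold. With either SOX4KO library alone, nuclear members lower numbered 5 to 33 of 74 and higher 2 to 3. Mitochondrial members higher numbered 3 to 9 of 13 and lower 0 to 1. In GR18 and GR19 alone 16.8% and 22.5% of all genes were lower and 20.5% and 19.1% higher. With mitochondrially encoded genes and Rn45s out of the total, the shares in GR17, GR18 and GR19 were 2.399%, 2.21% and 2.13% for nuclear and 10.5%, 11.99% and 14.9% for mitochondrial members, and the medians per cell 2.41%, 2.20% and 2.16% and 10.4%, 11.8% and 15.1%, because the total is smaller. The minimum of 500 or 2000 UMIs, 50 CPM on average, a pseudocount of 10 CPM and thinning left counts within 1.5 times and shares within counting error. No paired analysis was possible because the labels give no shared replicate numbers. The depth of 3050323 to 4678497 reads limits what bulk can show for members at a few CPM.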
